A study of Oryza sativa with 36 samples.

Results

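Organ-restricted m6A peaks are peaks of the epitranscriptomic mark N6-methyladenosine (m6A) that were found in rice shoots but not in rice roots, or the reverse, whatever the genotype of the plant. They were chosen by presence and absence in the 12 deposited lists of peaks in genes, 1 list for each m6A-seq replicate. A shoot-restricted peak is a peak of wild-type shoot replicate 1 that overlapped, on the same strand and by at least 1 bp, a peak in each of the other 5 shoot lists and none in the 6 root lists. The root-restricted peaks are the mirror set, taken from wild-type root replicate 1. The rule kept 78 of 12963 peaks, in 75 genes, for shoot (0.602%) and 87 of 14779 peaks, in 84 genes, for root (0.589%). The root set held 151 peaks without the list of FTOmut root replicate 2 and 135 without that of FTO root replicate 1. No gene was in both sets, and 159 genes held the 165 peaks.

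The groups were wild-type rice (Oryza sativa, cultivar Nipponbare), rice carrying the transgene FTO, and rice carrying FTOmut, a form of FTO without demethylase activity. FTO is an animal enzyme that removes m6A from RNA. Which promoter drives the transgenes, and how many lines were used, is not stated in the labels. Shoots and roots were taken from seedlings that were 15 days old and grown hydroponically, at 26 °C in the light (12 h) and 22 °C in the dark (12 h). Each genotype and organ had 2 RNA-seq libraries and 2 pairs of m6A-seq input and immunoprecipitated libraries. The m6A-seq libraries were made from poly(A) RNA. For RNA-seq the sources disagree, since the protocol describes depletion of ribosomal RNA and the molecule is labelled polyA RNA. The labels do not say that replicates came from separate cultures, so p-values measure only the spread between these samples.

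As background, m6A is written onto messenger RNA by a methyltransferase complex, removed by demethylases and bound by reader proteins of the YTH family, through which it acts on RNA stability, splicing and translation. In plants the mark is needed for embryo development and is found mostly near stop codons and in 3′ untranslated regions. An m6A peak is a stretch where fragments pulled down with an antibody to m6A exceed those of the input RNA, so it can be called only where the RNA itself is present. The level of RNA in the organ without the peak therefore belongs beside every absence. No genome of that build was used here, so no sequence under the peaks is shown and no exon, intron or untranslated region is assigned. Positions are as in the lists, counted from 1, on a build that is not given in the sources used here.

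The libraries carried the organ marks of their labels, with some spread that touches the results. RNA-seq libraries held between 12970274 and 17875977 gene counts. A list of 49 green-tissue genes (photosystem, antenna and carbon fixation) summed to 5987 to 25163 CPM (a gene's count scaled to the gene counts of its library) in the 6 shoot libraries and to 811 to 3867 CPM in the 6 root libraries, with no member at 0 in any library. In FTOmut root that sum was 2956 to 3867 CPM, against 1296 to 1396 CPM in wild-type root and 811 to 836 CPM in FTO root; its part in the results on FTOmut root was not tested. The 10 root markers were transporters for nitrate, silicon, iron, manganese, phosphate and auxin, a partner protein of the nitrate transporters, and nicotianamine aminotransferase. They summed to 2650 to 2698 CPM in wild-type root, 909 to 911 CPM in FTO root and 1902 to 2205 CPM in FTOmut root. The part of this difference in the results on FTO root was not tested. In shoot they summed to 71.4 to 176 CPM, and Lsi2, OsNRT2.1, OsNAR2.1 and OsPIN2 were at 0 in at least 1 library. The wild-type shoot libraries stood apart from each other, with green-tissue sums of 24053 CPM in replicate 1 and 5987 CPM in replicate 2 and a correlation of log2 CPM across genes of 0.914, while replicate 1 reached 0.955 and 0.956 with the FTO shoot libraries. The FTOmut shoot libraries correlated less, at 0.854. In FTOmut replicate 2, 36486 genes (shoot) and 46166 genes (root) had at least 10 counts, against 18065 to 30053 genes in the other libraries. The list of wild-type shoot replicate 2 also held 1 peak on a feature named HygR, a name used for hygromycin-resistance genes. The other 11 lists, those of the FTO and FTOmut plants among them, held 0 such peaks. Whether these wild-type shoot libraries carry the right label was not tested. Without that list the shoot set held 97 peaks and the root set 99.

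Absence from the other organ was the far end of a steep distribution. Of the peaks of wild-type shoot replicate 1 that were in all 6 shoot lists, 8644 overlapped a peak in all 6 root lists as well. Going down from 5 root lists to 1, the numbers were 695, 350, 204, 122 and 89, and the 78 members had 0. From the root side, 8672 peaks overlapped a peak in all 6 shoot lists, and the numbers then ran 548, 284, 175, 170, 94 and 87. Just outside the rule, of the 89 shoot peaks with 1 root list, 26 were held by FTO root replicate 2 and 6 by wild-type root replicate 1. Of the 94 root peaks with 1 shoot list, 29 were held by FTOmut shoot replicate 2 and 5 by wild-type shoot replicate 1.

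**Figure D1:**
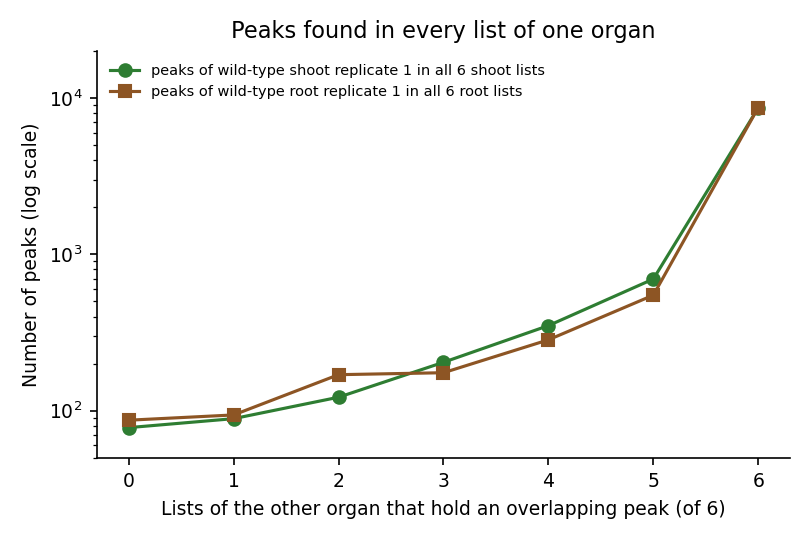
Number of peaks found in all 6 lists of one organ (y axis, log scale) by how many of the 6 lists of the other organ held an overlapping peak (x axis), for the peaks of wild-type shoot replicate 1 (green circles) and wild-type root replicate 1 (brown squares). The restricted peaks are the points at 0 (78 and 87), far below the 8644 and 8672 peaks found in every list.

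The restricted peaks were weaker and narrower than the peaks that all 12 lists shared. A wide or strong peak is more likely to overlap a called peak in every list, so the rule itself bears on this description. Fold here is the authors' value for each peak, the enrichment of the immunoprecipitate over input, and is compared only within a list. In the starting shoot list the median fold was 16.25 for the restricted peaks (quartiles 8.6 and 23.75), 36.5 for the peaks in all 12 lists and 26.0 for the whole list. In the starting root list the medians were 20.0 (quartiles 11.1 and 31.1), 39.8 and 25.2. Median span was 195.5 bp for shoot-restricted peaks against 281 bp for shared ones, and 209 bp against 270 bp in root. The peaks just outside the rule had like folds, with medians of 14.2 for shoot peaks found in 1 root list and 16.6 for root peaks found in 1 shoot list. In each of the 12 lists the median of the members lay below that of the whole list, and 74.4% to 82.1% of shoot members and 57.5% to 83.9% of root members were below it.

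**Figure D2:**
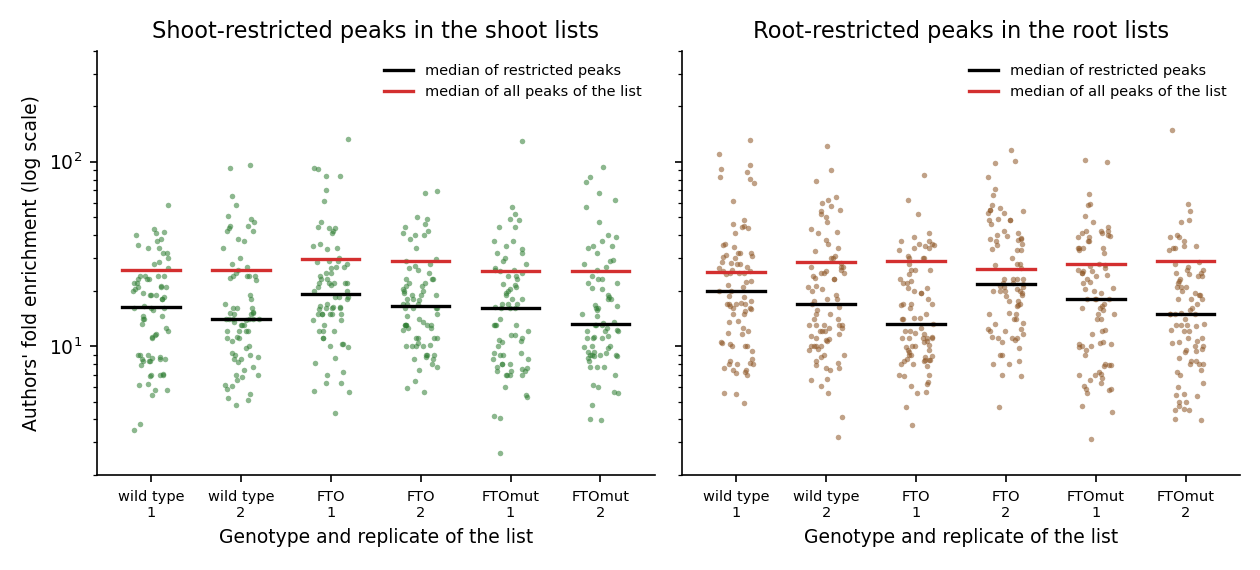
Authors' fold enrichment (y axis, log scale) of each restricted peak (points) in the 6 lists of its organ (x axis, genotype and replicate), with the median of the restricted peaks (black line) and of all peaks of that list (red line). The black line is below the red line in all 12 lists, for example 16.25 against 26.0 in wild-type shoot replicate 1.

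Members were spread over all 12 chromosomes in both sets. In 3 genes of each set there were 2 restricted peaks. In the root set, 13 genes lay within 100 kb of another member gene, at 6 places, and the closest group was LOC_Os10g31460, with 2 restricted peaks, LOC_Os10g31490 and LOC_Os10g31640 on chromosome 10, between positions 16486631 and 16582195. No pair of shoot-set genes lay that close. Peaks that the authors called in repeats overlapped 8.97% of shoot-restricted and 10.3% of root-restricted peaks, against 4.32% and 4.19% of the peaks in all 12 lists.

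RNA was low or missing in the organ without the peak for many members of both sets. In wild type, 16 of the 75 shoot-set genes (21.3%, 95% Wilson interval 13.6% to 31.9%) had a mean of at least 5 CPM in both organs, and 29 of the 84 root-set genes did (34.5%, 25.2% to 45.2%). Among genes with a peak in all 12 lists the share was 71.2%, both from the shoot and from the root list. Among all genes of the starting lists it was 62.9% for shoot and 60.7% for root. Of the shoot-set genes 36 were under 5 CPM in both organs and 18 in root alone. Of the root-set genes 21 were under 5 CPM in both organs and 33 in shoot alone. Root RNA was under 1 CPM for 45 of the 75 shoot-set genes, against 8.01% of all genes of the starting shoot list. Shoot RNA was under 1 CPM for 40 of the 84 root-set genes, against 11.9% for the starting root list. For the set genes under 1 CPM in the other organ a missing peak cannot be told apart from missing RNA. In bulk organs, in addition, fewer cells of a type and less RNA per cell cannot be told apart. The counts of genes with 5 CPM in both organs were 15 and 24 in FTO and 16 and 33 in FTOmut, and 13 shoot-set and 24 root-set genes passed in all 3 genotypes.

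The genes nearest to the limit of 5 CPM, in the organ where they were lower, had 5.29 CPM (LOC_Os01g57280) and 6.37 CPM (LOC_Os03g61280) above it in the shoot set and 3.85 CPM (LOC_Os06g10230) and 3.61 CPM (LOC_Os12g02420) below it. In the root set they had 5.04 CPM (LOC_Os02g40840) and 6.33 CPM (LOC_Os05g41760) above it and 4.92 CPM (LOC_Os03g18740) and 4.46 CPM (LOC_Os12g06980) below it. With a limit of 1 CPM the counts were 29 shoot-set and 44 root-set genes.

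**Figure D3:**
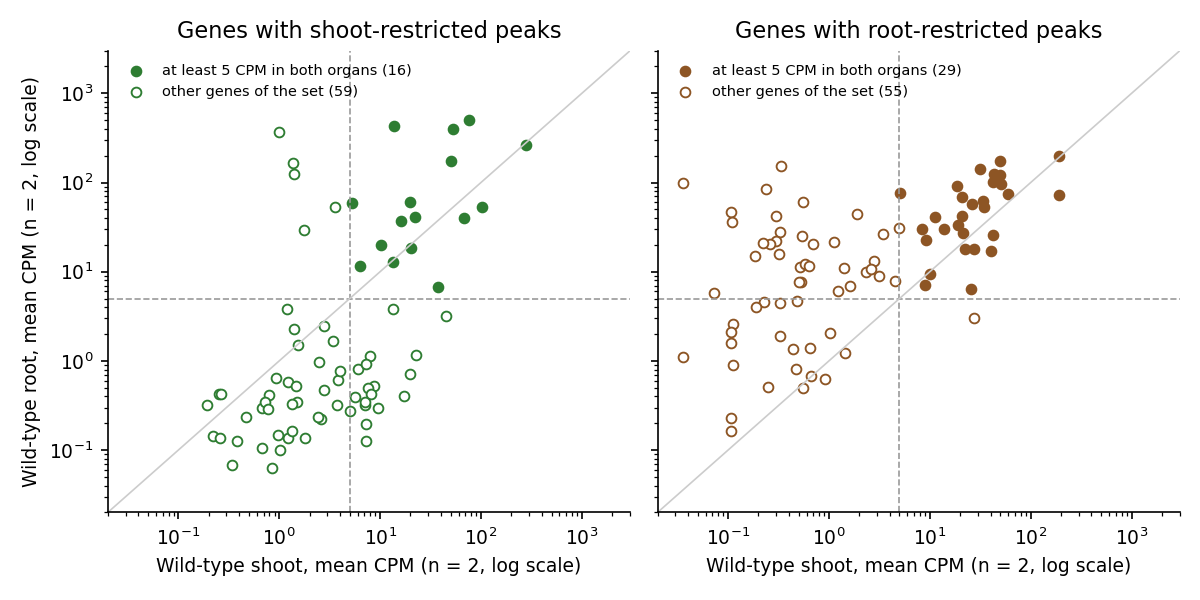
Mean CPM over the 2 wild-type libraries of shoot (x axis) and root (y axis), both on log scales, for the genes of the shoot set (left) and the root set (right). Filled points are the 16 and 29 genes with at least 5 CPM in both organs (dashed lines); the grey line marks equal CPM, and several shoot-set genes lie far above it.

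Low RNA was also seen in the organ that carried the peak. In wild-type shoot 17 of the 75 shoot-set genes had a mean under 1 CPM, and in wild-type root 8 of the 84 root-set genes did. Those are 22.7% and 9.52%, against 9.33% and 6.00% of the genes of the whole starting lists. Scaled by gene length, the median level in the own organ was 1.94 CPM per kb for shoot-set genes and 5.82 CPM per kb for genes of the peaks in all 12 lists. For root these medians were 8.81 and 13.5 CPM per kb.

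Of 18 lists of rice genes by function, holding 389 pairs of symbol and identifier, only 2 genes fell in the shoot set and none in the root set, and 1 of them, OsADH1, could be checked by name. OsADH1 (LOC_Os11g10480) encodes alcohol dehydrogenase 1, which regenerates NAD+ in ethanol fermentation when oxygen is short. Its peak lay on the minus strand of chromosome 11 at positions 5712731 to 5712970. The authors' folds in the 6 shoot lists were 30.0 and 9.0 (wild type), 18.5 and 19.0 (FTO), and 5.45 and 8.6 (FTOmut). Its RNA was at 33.9 and 101 CPM in wild-type shoot and at 39.1 and 40.4 CPM in wild-type root, so the ranges of both organs overlapped. No root list held any peak in this gene. Root RNA of OsADH1 was lower than shoot RNA by edgeR's quasi-likelihood test in wild type (log2 fold change -1.81 ± 0.487 SE, adjusted p = 0.0191) and in FTO (-1.83 ± 0.488, adjusted p = 0.0159). In FTOmut it was -1.08 ± 0.477 (adjusted p = 0.189). With ERCC scaling the values were -3.46 in wild type, -3.49 in FTO and -2.72 in FTOmut, and all 3 were called (adjusted p = 0.000137, 7.63e-05 and 0.000436). In FTO the CPM values were 32.8 and 33.1 in shoot and 35.5 and 38.5 in root, so that on this scale every root value was the higher one. With library size only the log2 fold change was 0.17 in FTO (adjusted p = 0.751) and -0.77 in wild type (adjusted p = 0.284), neither of them called. Leaving out 1 library moved the wild-type value to between -2.11 and -0.96, the latter without wild-type shoot replicate 2, and the call was lost without that library or without either root replicate. The other listed gene, LOC_Os11g01330, is given below by its identifier.

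Levels in the organs were then compared across all genes in RNA-seq, which took no part in choosing the peaks. Libraries were scaled by TMM (trimmed mean of M values), and a gene is called where the adjusted p was under 0.05. In wild type 39 of the 73 shoot-set genes that passed the filter on low counts were higher in shoot, against 9.39% of the 38524 genes tested, 9 were higher in root, against 10.5%, and 25 were not called. In either direction 19.9% of all tested genes were called. The median log2 fold change of root over shoot was -2.57 for the set and -0.26 for all tested genes. All 84 root-set genes passed the filter. Of them 32 were higher in root, against 10.5% of all tested genes, and 8 in shoot, near the 9.39% of all. The other 44 were not called, and the median log2 fold change was 1.00. Since a peak needs RNA, and the filter keeps genes present in a single group, the counts toward the organ of the peak are a description. Leaving out either wild-type root replicate gave 24 shoot-set genes higher in shoot in place of 39.

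The counts moved with the choice of scaling, and so did all genes together. The median log2 fold change of all tested genes in wild type was -0.26 with TMM, -1.80 with scaling to the ERCC spike-in RNA and 0.79 with library size only, the scale of the CPM values. With ERCC scaling 28 of the 84 root-set genes were higher in shoot, a share near the 35.3% of all tested genes, and 17 were higher in root, where 2.92% of all were. With library size only these numbers were 4 and 56, against 5.05% and 33.4% of all tested genes. The median of the root set was 1.00 with TMM and turned to -0.51 with ERCC scaling. For the shoot set, 56 genes were higher in shoot and 6 in root with ERCC scaling, and 27 and 16 with library size only. The 2 loci that took most counts on chromosome 9 were LOC_Os09g01000 and LOC_Os09g00999. Together they held 21.0% and 34.4% of gene counts in wild-type shoot (replicates 1 and 2) and 3.19% and 2.31% in wild-type root. In FTO they held 64.8% and 63.6% in shoot and 23.2% and 22.0% in root, and in FTOmut 14.3% and 18.6% in shoot and 4.30% and 1.22% in root. The CPM of every other gene is lower by the share these loci take. The direction of a single gene is given below with these scalings where it turned.

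Organ differences of the set genes were also counted in the other genotypes. The rule used the FTO and FTOmut lists too, so counts toward the organ of the peak are again a description. In FTO, 42 shoot-set genes were higher in shoot (12.7% of all tested genes were) and 11 in root (9.55%), and in FTOmut 28 were higher in shoot (9.34%) and 11 in root (5.74%). With TMM 24 genes were called higher in shoot in all 3 genotypes, against 5.78% of all tested genes, and 9 higher in root, against 3.35%. With ERCC scaling these numbers were 46 and 2 (27.8% and 0.841% of all tested genes), and with library size only 16 and 12 (2.67% and 16.8%). In the root set, 38 genes were higher in root in FTO and 26 in FTOmut, and 21 genes were called so in all 3 genotypes (7 with ERCC scaling and 44 with library size only), to be read against the same 3.35%, 0.841% and 16.8% of all tested genes. Root-set genes called higher in shoot numbered 5 in FTO and 3 in FTOmut, and 1 gene was called so in all 3. With ERCC scaling they numbered 25 and 30, where 39.3% and 43.7% of all tested genes were higher in shoot. With library size only they numbered 0 and 1, where 4.22% and 4.15% were. Shoot-set genes higher in root were 5 in FTO and 3 in FTOmut with ERCC scaling, against 2.76% and 1.53% of all tested genes. With library size only they were 19 and 14, against 57.1% and 19.7%. The difference between organs itself differed between FTO and wild type in 4 shoot-set and 7 root-set genes, where 3.31% of all tested genes did. It was larger in FTO in 1 and 5 of them (1.87% of all tested genes) and smaller in 3 and 2 (1.44%). This balance depended on the scaling. In the shoot set 4 were larger and 2 smaller with DESeq2's size factors, 2 and 5 with ERCC scaling, and 7 and 3 with library size only. In the root set these numbers were 8 and 1, 4 and 3, and 17 and 1. Over all 38524 tested genes they were 1097 and 371, 555 and 1123, and 2156 and 182, so the balance of all genes moved as well.

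Among the genes with at least 5 CPM in both wild-type organs, which organ had more RNA depended on the scaling. With TMM, of the 16 such shoot-set genes, 5 were higher in shoot, 4 were higher in root and 7 were not called, and the median log2 fold change was -0.17. Of the 29 such root-set genes, 3 were higher in root, 7 were higher in shoot and 19 were not called, and the median was -0.21. Both medians were near the -0.26 of all tested genes. Of the 11198 tested genes with at least 5 CPM in both wild-type organs, 13.7% were higher in shoot and 11.6% in root. With ERCC scaling 11 of the 16 were higher in shoot and 1 in root, and 24 of the 29 were higher in shoot and 1 in root, where 72.3% and 1.05% of the 11198 genes were. With library size only 2 of the 16 were higher in shoot and 10 in root, and 3 of the 29 were higher in shoot and 16 in root, where 5.59% and 61.5% of the 11198 genes were. On the CPM scale the mean was higher in root for 10 of the 16 and for 21 of the 29, against 85.3% of the 11198 genes. The medians of both groups of genes were -1.68 with ERCC scaling, where that of all tested genes was -1.80, and 0.93 and 0.91 with library size only, where it was 0.79. The 3 root-set genes higher in root with TMM were LOC_Os02g40840, LOC_Os06g50840 and LOC_Os12g18120, named after their values were seen.

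**Figure D4:**
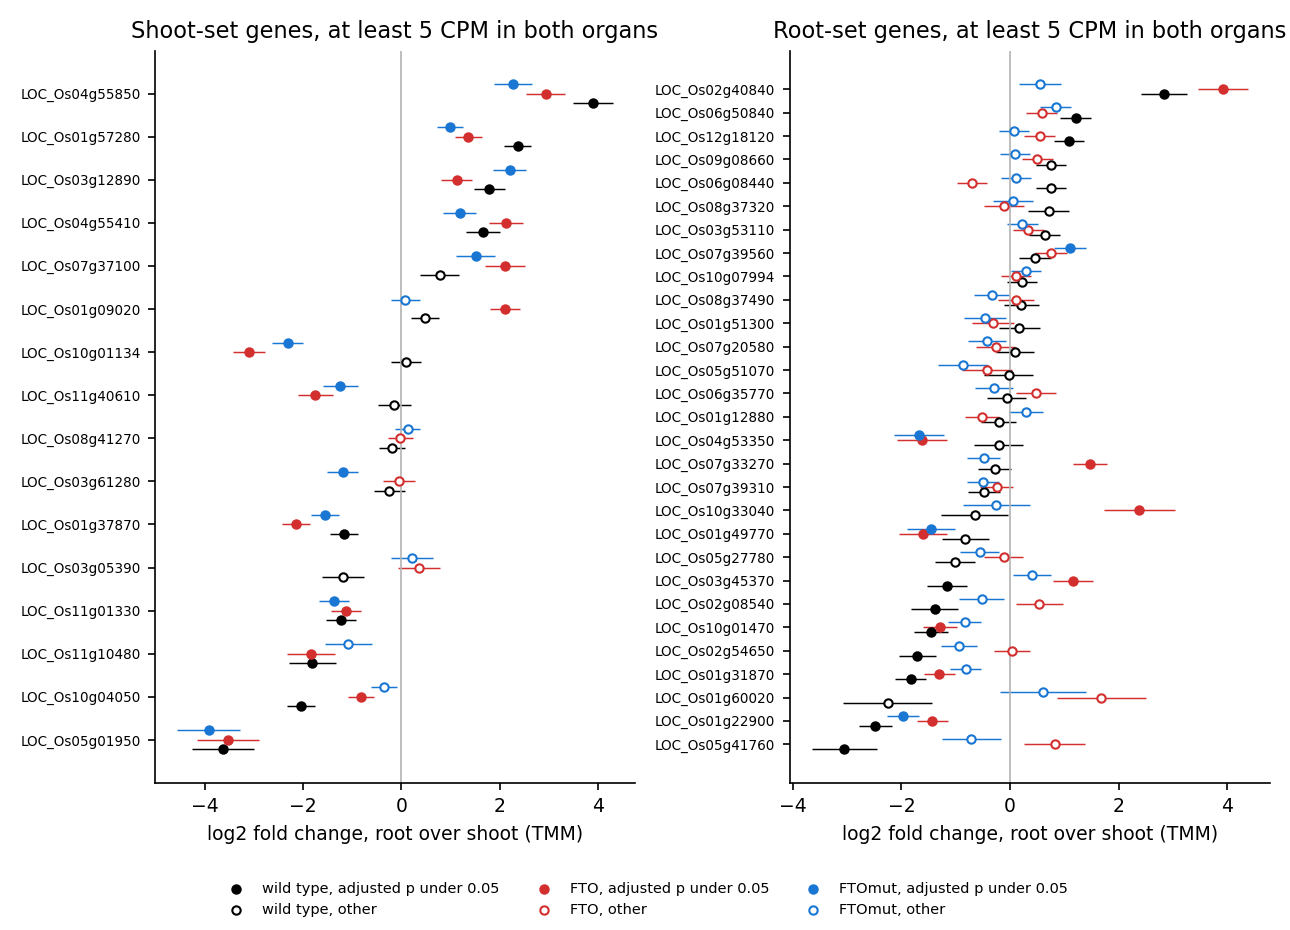
Log2 fold change of root over shoot after TMM scaling (x axis, with SE bars) in wild type (black), FTO (red) and FTOmut (blue) for the 16 shoot-set genes (left) and 29 root-set genes (right) with at least 5 CPM in both organs of wild type; filled points passed an adjusted p of 0.05. With this scaling genes with the peak in shoot lie on both sides of 0, and 19 of the 29 root-set genes have an open black point; with ERCC scaling 11 of the 16 and 24 of the 29 were called higher in shoot.

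In wild type 10.5% of all tested genes were called higher in root after TMM scaling. Near that share, 9 of the 73 tested shoot-set genes (12.3%) had more RNA in root, the organ without the peak. Their mean level in wild-type shoot ran from 0.994 CPM (LOC_Os08g33479) to 76.3 CPM (LOC_Os04g55410). LOC_Os08g33479 had the largest difference. Its peak was on the plus strand of chromosome 8 at positions 20886093 to 20886233, with folds of 24.0 and 13.5 (wild type), 6.33 and 12.5 (FTO), and 28.0 and 13.3 (FTOmut). Its RNA was at 0.694 and 1.29 CPM in wild-type shoot and at 368 and 375 CPM in wild-type root, and no root list held a peak anywhere in the gene. The log2 fold change was 7.46 ± 0.458 (adjusted p = 2.30e-06). In FTO shoot both libraries had 0 counts of this gene while root had 187 and 182 CPM, at least 2184-fold higher when 3 counts over both shoot libraries are taken as the floor.

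LOC_Os07g33610 followed, with a peak on the plus strand of chromosome 7 at positions 20081202 to 20081511 and folds between 5.67 and 17.7. Its RNA was at 1.46 and 1.29 CPM in wild-type shoot and at 165 and 163 CPM in wild-type root (log2 fold change 5.79 ± 0.328, adjusted p = 1.47e-06). The organs did not overlap in this gene, nor in LOC_Os08g33479. Of the 9 genes, 8 had no peak in any root list, LOC_Os01g57280 had another peak in 5 of the 6 root lists, and 4 had at least 5 CPM in both organs. Of those 4, LOC_Os04g55850, picked out after its values were seen, had 8.48 and 19.1 CPM in shoot and 382 and 471 CPM in root. The calls of 6 of the 9 genes held under TMM, DESeq2's size factors, ERCC scaling and library size only: LOC_Os01g04120, LOC_Os03g14300, LOC_Os04g55850, LOC_Os07g33610, LOC_Os08g33479 and LOC_Os12g02420. Leaving out 1 library at a time gave 8 or 9 genes.

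At the other end of the shoot set were genes with little RNA in the organ without the peak. LOC_Os02g43194, with a peak on the minus strand of chromosome 2 at positions 26034370 to 26034529, had 6.32 and 8.12 CPM in wild-type shoot and 0 and 0.250 CPM in root (log2 fold change -6.71 ± 0.692, adjusted p = 2.27e-05). With 1 root library at 0 the size of that change is uncertain, and it was -5.79 without root replicate 1 and -10.29 without root replicate 2. LOC_Os06g28194, on the plus strand of chromosome 6 at positions 16032579 to 16032809, had 14.7 and 19.7 CPM in shoot and 0.373 and 0.438 CPM in root (-6.44 ± 0.445, adjusted p = 2.40e-06). Its folds ran from 28.5 to 68.0 over the 6 lists.

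Of the 84 root-set genes 9.52% were called higher in wild-type shoot with TMM, near the 9.39% of all tested genes. The number of these calls against the organ of the peak depended on the libraries. The 8 genes higher in wild-type shoot fell to 3 without wild-type shoot replicate 2, to 4 without replicate 1, and to 5 and 3 without root replicates 1 and 2. The largest was LOC_Os07g37730 (plus strand of chromosome 7, positions 22619495 to 22619605), with 2.08 and 52.9 CPM in shoot and 2.98 and 3.00 CPM in root, so that the organs overlapped and 1 shoot library stood apart (log2 fold change -4.19 ± 0.967, adjusted p = 0.00815; -0.66 without wild-type shoot replicate 2). LOC_Os05g41760 (minus strand of chromosome 5, positions 24428561 to 24428720) had 7.56 and 44.2 CPM in shoot and 6.34 and 6.32 CPM in root, with all root values below all shoot values (-3.05 ± 0.598, adjusted p = 0.00275; -1.44 without wild-type shoot replicate 2, no longer called). LOC_Os01g22900, LOC_Os01g31870 and these 2 genes were called under each of the 4 scalings.

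Root-set genes with the largest difference toward root had next to no shoot RNA. LOC_Os11g37940 (plus strand of chromosome 11, positions 22500182 to 22500381) had 0 and 0.0719 CPM in wild-type shoot, which is 1 count in all, and 88.1 and 108 CPM in root. That is a ratio of 2657 with a 95% interval from counting of 477 to 1.05e+05. LOC_Os01g60060 (plus strand of chromosome 1, positions 34743827 to 34744027) had 0.308 and 0.359 CPM in shoot and 148 and 157 CPM in root (log2 fold change 7.73 ± 0.676, adjusted p = 1.22e-05), and its folds of 22.6 to 148 included the highest of the root set in the list of FTOmut root replicate 2. In neither gene did a shoot list hold a peak.

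The members whose lowest fold over the 6 lists was highest, among genes with at least 5 CPM in both organs, included genes with much RNA in both organs. In the shoot set they were LOC_Os03g61280 (plus strand of chromosome 3, positions 34800614 to 34800814; lowest fold 11.2), LOC_Os03g05390 (minus strand of chromosome 3, positions 2651989 to 2652229; 8.70), LOC_Os10g04050 (plus strand of chromosome 10, positions 1862293 to 1862563; 8.25) and LOC_Os11g01330 (plus strand of chromosome 11, positions 199139 to 199339; 7.62). LOC_Os03g61280 had 6.78 and 5.96 CPM in wild-type shoot and 13.2 and 9.89 CPM in root. LOC_Os03g05390 was abundant in both organs, with 279 and 277 CPM in shoot and 353 and 172 CPM in root. Neither of these genes was called in wild type (log2 fold changes -0.25 ± 0.317 and -1.19 ± 0.435, adjusted p = 0.649 and 0.0778).

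LOC_Os10g04050 held 6 peaks in the starting shoot list, and each of the 6 root lists also had a peak in the gene, the nearest 228 bp to the 3′ side of the restricted one. Its RNA was at 98.0 and 108 CPM in shoot and 50.5 and 55.9 CPM in root (-2.04 ± 0.276, adjusted p = 0.000177). LOC_Os11g01330 had 24.2 and 15.9 CPM in shoot and 18.8 and 18.6 CPM in root, levels that overlapped, and its fitted log2 fold change of -1.22 ± 0.309 (adjusted p = 0.0132) was -0.11 and not called with library size only.

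In the root set the members with the highest lowest fold were LOC_Os08g37490 (plus strand of chromosome 8, positions 23750412 to 23750671; lowest fold 17), LOC_Os08g37320 (minus strand of chromosome 8, positions 23581951 to 23582129; 16.3), LOC_Os09g08660 (minus strand of chromosome 9, positions 4534995 to 4535155; 12.5) and LOC_Os01g12880 (plus strand of chromosome 1, positions 7129249 to 7129449; 11.8). LOC_Os08g37490 had 44.1 and 55.3 CPM in wild-type shoot and 114 and 130 CPM in root. LOC_Os08g37320 had 49.2 and 49.6 CPM in shoot and 187 and 159 CPM in root. LOC_Os09g08660 had 7.63 and 8.98 CPM in shoot and 31.2 and 28.4 CPM in root. LOC_Os01g12880 had 61 and 41.2 CPM in shoot and 95.8 and 96.0 CPM in root. On the CPM scale the mean was higher in root for 85.3% of the 11198 genes with at least 5 CPM in both organs. The organs did not overlap in any of these 4 genes, with root higher, and the like share of all genes was not counted. After TMM scaling none was called in wild type, with log2 fold changes of 0.21, 0.71, 0.75 and -0.21, and with ERCC scaling all 4 values were below 0. In all 4 genes each of the 6 shoot lists held another peak.

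The sets differed in whether the gene carried m6A elsewhere in the other organ. In 20 of the 84 root-set genes (23.8%, 95% Wilson interval 16% to 33.9%) all 6 shoot lists held a peak at another place in the same gene, and in 1 of the 75 shoot-set genes (1.33%, 0.236% to 7.17%) all 6 root lists did. Among genes with at least 5 CPM in both organs the counts were 14 of 29 (48.3%, 31.4% to 65.6%) and 1 of 16 (6.25%, 1.11% to 28.3%). In 66 shoot-set genes and 53 root-set genes no list of the other organ held any peak. In the starting lists, 37 of the 84 root-set genes (44.0%) and 12 of the 75 shoot-set genes (16%) had more than 1 peak, against 16% and 7.82% of all genes of the root and shoot lists. Counted by peaks, 21.8% of root-restricted peaks lay in a gene with a peak in all 12 lists, close to the 21.0% of root peaks found in all 6 root lists and in 1 to 5 shoot lists. For shoot the shares were 0% and 10.3%. These shares are descriptions of genes in 2 lists, and the intervals cover counting error only.

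Where a root-set gene also had a peak in all 12 lists, the root-restricted peak lay to its 5′ side. This held in 18 of 19 genes (94.7%, 95% Wilson interval 75.4% to 99.1%), 1 pair of peaks in each. The genomic gap between the peaks, introns included, had a median of 4672 bp and reached 9673 bp in LOC_Os05g06814, and it was over 1000 bp in 17 genes. The exception, LOC_Os09g08660, had the shared peak 89 bp to the 5′ side. In LOC_Os01g12880 the shared peak was at positions 7136971 to 7137330, 7521 bp to the 3′ side of the restricted one, with a fold of 80.0 against 45.0 in the starting list. The restricted peak had the lower fold in 14 of the 19 genes, and the median folds were 17.2 and 42.4.

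This position was not particular to the restricted peaks. Among peaks in all 6 root lists and in 1 to 5 shoot lists, 267 lay in a gene with a peak in all 12 lists, and 85.8% (81.1% to 89.5%) were to the 5′ side of it. Over the 1234 peaks of the starting root list that lay in such a gene and were not themselves in all 12 lists the share was 82.7%. In the starting shoot list it was 48.6% of 508 peaks. No shoot-restricted peak lay in a gene with a peak in all 12 lists.

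**Figure D5:**
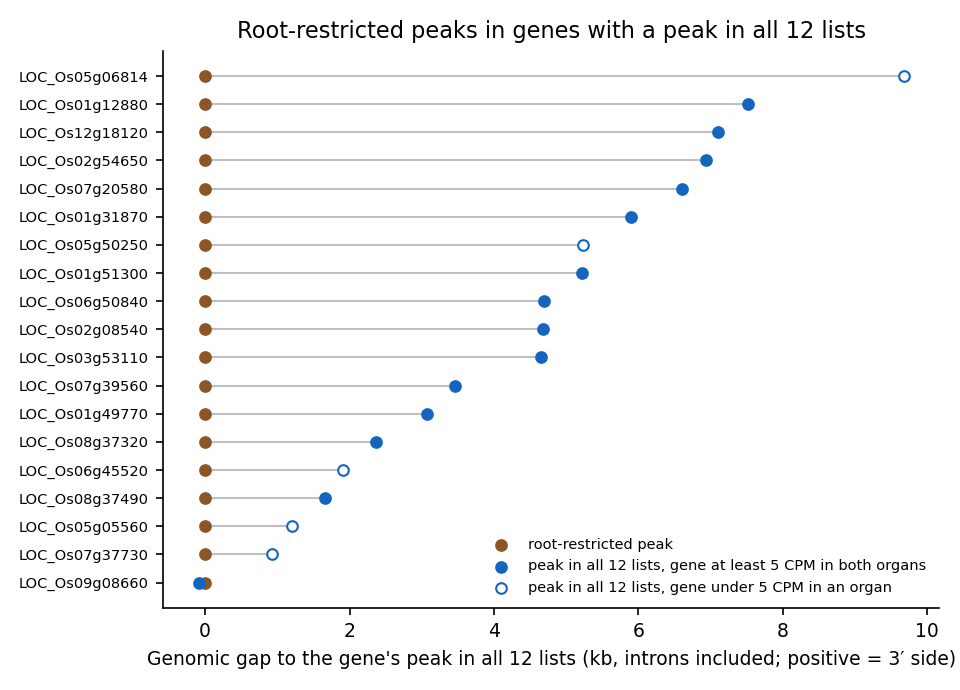
Genomic gap in kb (x axis, introns included, positive toward the 3′ end of the gene) from the root-restricted peak (brown, at 0) to the peak of the same gene found in all 12 lists (blue; open where the gene was under 5 CPM in an organ), for the 19 root-set genes that had one. In 18 genes the shared peak is on the 3′ side, with gaps up to 9673 bp, and in LOC_Os09g08660 it is 89 bp to the 5′ side.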

How the data were processed

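Gene peak lists, 1 per m6A-seq replicate, hold for each peak a fold (a ratio of immunoprecipitate over input), a p-value and an FDR on a log10 scale, as deposited by the authors; MeTPeak is named in the labels' descriptions, and neither its settings nor a genome build is given in the sources used here. Gene tables hold expected counts as deposited by the authors, not normalized, with gene lengths in bp, an other unit, used for levels per kb. Per the submitters' processing notes, cutadapt 1.15, HISAT2 2.1.0 and featureCounts of Subread 1.6.4 were used.

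Peaks were compared by blocks on the same strand, and bedtools 2.31.1 gave the same 78 and 87 members. Peaks of the deposited repeat lists were used for overlap alone. CPM is counts over the sum of all genes without ERCC. Expected counts were rounded, and all 12 RNA-seq libraries were fitted with edgeR 4.0.16 (R 4.3.3; filterByExpr, TMM, robust quasi-likelihood F test, two-sided, Benjamini-Hochberg adjusted p under 0.05, 1 mean per genotype and organ), after a test on simulated counts. ± SE belongs to the fitted log2 fold change. DESeq2 1.42.0, other scalings, a replicate block and left-out libraries were alternatives. Depth was 12970274 to 17875977 gene counts, and intervals cover counting error only. The organ contrasts of 1 genotype compare no library of another. All come from the same fit and share its scaling and its estimate of the spread, so they are not independent.

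Members and gene lists were chosen with earlier results of these data known. The genes named are those in the functional lists whose symbol occurs once in the reference gene table on the identifier's chromosome; per set the 4 peaks with the highest lowest fold among genes with at least 5 CPM in both organs, the 2 largest called changes each way with a mean log2 CPM of at least 1, and the 2 genes nearest 5 CPM on each side; exceptions are marked. The reference table, of another assembly, matched 0 identifiers, and 228 of 389 listed symbols passed the check.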

Additional observations from a re-analysis of the deposited data

Results flagged for a closer look

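For 11 member genes the root-over-shoot difference itself differed between FTO and wild type by the interaction term of the edgeR fit (adjusted p under 0.05), where 3.31% of all tested genes did. Values are log2 differences, FTO minus wild type. In the shoot set they were LOC_Os10g01134 (-3.20; called in 10 of 13 alternative fits), LOC_Os07g33610 (-2.66; 7 of 13), LOC_Os08g33479 (6.80; 6 of 13) and LOC_Os03g01018 (-5.80; 5 of 13). The last 2 had 0 counts in both FTO libraries of an organ, so that their size depends on the prior count and is no bound.

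In the root set they were LOC_Os11g44600 (6.01; 13 of 13), LOC_Os11g37940 (-6.63; 10 of 13), LOC_Os05g41760 (3.87; 7 of 13), LOC_Os07g37730 (6.94; 6 of 13), LOC_Os03g45370 (2.31; 6 of 13), LOC_Os05g06814 (-2.29; 4 of 13) and LOC_Os07g33270 (1.76; 4 of 13). Single shoot libraries moved some of these values. For LOC_Os11g37940, with 1 count in all in wild-type shoot and 0 counts in FTO shoot replicate 1, the difference was -0.66 (adjusted p = 0.961) without FTO shoot replicate 2 and -9.77 without wild-type shoot replicate 2, so that its size is uncertain. For LOC_Os07g37730, with 2.08 and 52.9 CPM in wild-type shoot, it was 3.55 without wild-type shoot replicate 2, and for LOC_Os05g41760 2.41 (adjusted p = 0.156). LOC_Os11g44600 had 0.463 and 2.01 CPM in wild-type shoot and 4.92 and 7.32 CPM in wild-type root, against 0.113 and 0.112 CPM in FTO shoot and 68.9 and 71.8 CPM in FTO root. LOC_Os10g01134 had 19.4 and 12.6 CPM in wild-type shoot and 35.9 and 38.4 CPM in wild-type root, against 13.1 and 11.6 CPM in FTO shoot and 5.63 and 5.91 CPM in FTO root. FTOmut, which lacks the demethylase activity, lay nearer to FTO than to wild type in the first 4 genes below and between both in LOC_Os11g44600. It lay nearer to wild type in LOC_Os03g01018, LOC_Os08g33479, LOC_Os07g33270 and LOC_Os07g37730, and nearer to FTO in LOC_Os03g45370 and LOC_Os05g41760. The difference between FTO and FTOmut was not tested. The log2 fold changes of root over shoot in wild type, FTO and FTOmut were 0.10, -3.10 and -2.31 for LOC_Os10g01134. For LOC_Os07g33610 they were 5.79, 3.13 and 2.75, and for LOC_Os05g06814 3.42, 1.13 and 1.18. For LOC_Os11g37940 they were 10.09, 3.46 and 4.68, and for LOC_Os11g44600 1.25, 7.26 and 3.97. For LOC_Os03g01018 they were -4.87, -10.67 and -3.56, for LOC_Os08g33479 7.46, 14.26 and 7.17, and for LOC_Os07g33270 -0.285, 1.48 and -0.481. For LOC_Os07g37730 they were -4.19, 2.75 and -1.92, for LOC_Os03g45370 -1.154, 1.155 and 0.401, and for LOC_Os05g41760 -3.05, 0.827 and -0.714. Each of these peaks was present in both FTO lists of its organ and absent from those of the other, as the rule requires.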

How the results depend on the processing

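With the wild-type lists alone, which drop the demand on FTO and FTOmut, the rule took 938 shoot and 1313 root peaks. Leaving out 1 list at a time gave 84 to 104 shoot and 92 to 151 root peaks, the highest root counts being 151 without FTOmut root replicate 2 and 135 without FTO root replicate 1. Covering 50% of the blocks, whole spans, ignoring strand, starting from the second list or a stricter FDR gave 72 to 86 and 87 to 96. At 1 CPM the genes expressed in both organs numbered 29 and 44; leaving out 1 library gave 15 to 16 and 26 to 31.

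Calls between organs over all genes numbered 7649 in wild type, 8570 in FTO and 5808 in FTOmut. With ERCC scaling they were 14718, 16186 and 17422, and with library size only 14806, 23614 and 9174. The 4 wild-type libraries alone gave 4929. Leaving out 1 library gave 4182 to 9521, 4339 to 5116 and 3721 to 9587. The interaction between FTO and wild type gave 1274 genes, 2860 with DESeq2, 2338 with library size only, 2766 without both FTOmut replicate 2 libraries and 239 to 3249 without 1 library, the most without wild-type shoot replicate 1; library size only and left-out libraries were added here after seeing the data.

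For shoot-set genes, calls higher in wild-type shoot (39) were 24 to 41 without 1 library, and those higher in root (9) were 8 to 9, and 16 with library size only. Calls higher in shoot were 51 in FTO and 51 in FTOmut with ERCC scaling, against 39.3% and 43.7% of all tested genes. With library size only they were 24 and 19, against 4.22% and 4.15%. For root-set genes, calls higher in wild-type root (32) were 17 with ERCC scaling, 56 with library size only and 26 to 39 without 1 library. Those higher in shoot (8) were 28 with ERCC scaling, 5 with no filter, 3 with the wild-type libraries alone, 4 with library size only and 3 to 8 without 1 library. Calls higher in root were 20 in FTO and 10 in FTOmut with ERCC scaling, 79 and 48 with library size only, and 31 to 33 and 20 to 34 without 1 library. Of all tested genes, 2.76% in FTO and 1.53% in FTOmut were higher in root with ERCC scaling, and 57.1% and 19.7% with library size only. Gene counts per ERCC count were 62.9 and 78.4 in wild-type shoot and 12.4 and 10.6 in wild-type root. In FTO they were 270 and 310 in shoot and 22.7 and 23.3 in root. In FTOmut they were 60.3 and 92.5 in shoot and 12.2 and 9.8 in root. The cause of the moves between scalings and libraries was not tested.

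Among named genes the wild-type log2 fold change turned sign with ERCC scaling for LOC_Os03g18740 (-0.051), LOC_Os08g37320 (-0.80), LOC_Os08g37490 (-1.35) and LOC_Os09g08660 (-0.78). It turned with library size only for LOC_Os01g12880 (0.91), LOC_Os03g61280 (0.86) and LOC_Os12g06980 (0.80). Leaving out 1 library gave -0.53 (without wild-type shoot replicate 2) to 0.46 (without replicate 1) for LOC_Os01g12880, -0.43 to 0.18 for LOC_Os03g61280 in the same order, and -0.50 (without replicate 1) to 0.52 (without replicate 2) for LOC_Os12g06980.

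Replicate numbers were not stated to pair samples. The deviations of equal numbers correlated at 0.01 between wild-type shoot and root, -0.03 in FTO and 0.75 in FTOmut. With the number as a replicate block, 7566, 8571 and 5766 genes were called between organs, 1244 in the interaction, and the counts of set genes were 40 and 9 for the shoot set and 33 and 8 for the root set in wild type. Depth limits genes under about 1 CPM: 3 counts over both libraries of a group are 0.0845 to 0.112 CPM.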

Other observations

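In the RNA-seq libraries 2 shoot-set genes, LOC_Os08g33479 and LOC_Os11g24180, had 0 counts in both FTO shoot libraries, while both FTO shoot lists held the peak, with folds of 6.33 and 12.5 and of 11 and 11. In FTO shoot 27 of the 75 shoot-set genes had a mean under 1 CPM, against 13 in FTOmut shoot. With library totals that leave out the 2 abundant loci of chromosome 9, whose share of counts was 64.8% and 63.6% for the FTO libraries and 14.3% and 18.6% for those of FTOmut, the numbers were 14 and 12. The m6A-seq libraries started from poly(A) RNA, while the sources disagree on whether the RNA-seq libraries did. The input counts under the peaks were not used here.

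On the strand opposite to 6 shoot-restricted peaks a root list held an overlapping peak, and on the strand opposite to root-restricted peaks 0 shoot lists did.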
